A study of Mus musculus with 2 samples.

Results

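Globin transcripts were measured in RNA from vesicles that murine CTL, the killer class of T cells, shed into their culture medium. The members are the array probes whose annotated gene symbol starts with Hba- or Hbb-, and 8 of the 23473 probes carried such a symbol, 1 for each of 8 genes. A value on both arrays was present for 5 of them, and 4 (Hbb-bs, Hbb-bt, Hbb-b2 and Hba-a2) were bright enough for the comparison across genes. Those 4 were chosen by their measured levels and by their difference between the arrays, so their values are given as a description, with no test.

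Vesicles came from medium in which CTL had grown for 7 days. Both fractions passed the same 750 kDa ultrafiltration and the same DEAE column, a positively charged resin that holds negatively charged particles until salt displaces them. One fraction left the column at 0.5 M NaCl and the other at 0.3 M NaCl, and each was hybridised to 1 array with Cy5 as the only dye. The labels name neither the strain, age or stimulus of the cells nor how many preparations each fraction pooled, and no sample of the cells themselves or of fresh medium is among those analysed.

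Haemoglobin, the oxygen carrier of red cells, is built from alpha-type and beta-type globin chains, each holding a haem group. In the mouse the alpha-type genes lie in a cluster on chromosome 11 and the beta-type genes in a cluster on chromosome 7, and both clusters switch from embryonic to adult genes during development. Adult globin messenger RNA is among the most abundant in maturing red cells. Hbb-bs and Hbb-bt are the adult beta genes of the haplotype carried by C57BL/6 mice, whereas Hbb-b2 is the minor adult beta gene of the haplotype carried by strains such as BALB/c. These beta genes are close copies of each other, so a probe annotated to one may bind RNA of another. Shared binding was not tested.

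The array with the 0.5 M fraction had a value for 71.3% of probes and the array with the 0.3 M fraction for 80.8%. The lowest and highest deposited intensities were 5 and 251376 at 0.5 M, and 4 and 167286 at 0.3 M. Over the 16154 probes with both values the median was 26 at 0.5 M and 32 at 0.3 M, a shift of -0.30 on the log2 scale (0.5 M minus 0.3 M) that was removed before differences were taken. With 1 array per fraction there is no spread between replicates, and each difference below describes this pair of arrays.

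All 4 adult globin probes were dimmer in the 0.5 M fraction than in the 0.3 M fraction. In such bulk RNA, fewer vesicles that carry a transcript and less of it per vesicle cannot be told apart. Hba-a2, an adult alpha chain, had an intensity of 5681 at 0.5 M and 12001 at 0.3 M. Counted from the brightest probe, it stood at place 163 on the 0.5 M array and at place 79 on the 0.3 M array. This makes it the brightest globin probe on each array, although the signals of different probes do not measure relative amounts of RNA. Its difference was -0.78 on the log2 scale after centring, or 1.72-fold lower at 0.5 M.

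Hbb-bs, the adult beta chain s, had an intensity of 1518 at 0.5 M and 3747 at 0.3 M. Its difference of -1.004, 2.01-fold lower at 0.5 M, was the largest among the globins. Hbb-bt, the adult beta chain t, had an intensity of 697 at 0.5 M and 1367 at 0.3 M, a difference of -0.67. For each of these beta chains the value at 0.3 M exceeded that at 0.5 M before any scaling as well, by 2.47-fold for Hbb-bs and 1.96-fold for Hbb-bt. Before scaling, 64.5% of all genes kept for comparison were also lower at 0.5 M.

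Hbb-b2, the minor adult beta chain, was far dimmer, with an intensity of 108 at 0.5 M and 208 at 0.3 M, and a difference of -0.65. The difference of Hbb-bt minus that of Hbb-b2 was -0.03. The 3 beta genes had a median difference of -0.67. Relative to the alpha gene Hba-a2, the difference of Hbb-bs was -0.22, that of Hbb-bt 0.11 and that of Hbb-b2 0.13. These gaps depend on the scaling, and that of Hbb-b2 was 0.55 with quantile normalization and 0.67 with a loess trend on level removed.

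**Figure D1:**
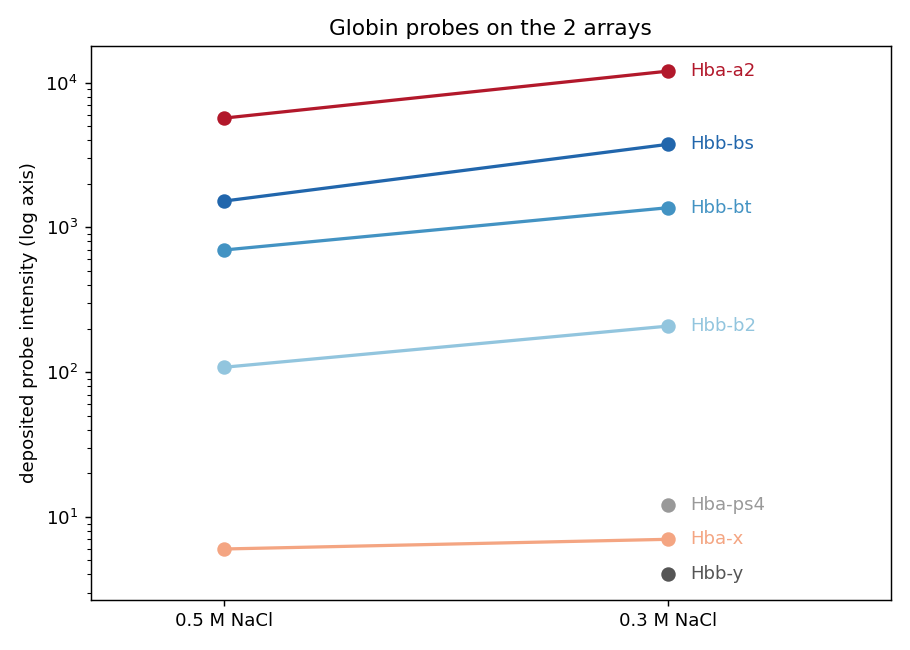
Deposited probe intensity (log axis, arbitrary units) of the globin probes in the 0.5 M and 0.3 M fractions, 1 array each. Points are single array values joined by a line where both arrays had one. Hba-a2, Hbb-bs, Hbb-bt and Hbb-b2 lie lower at 0.5 M, while Hba-x, Hba-ps4 and Hbb-y lie at 12 or below.

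The other globin probes were at or near the dim end of the arrays. Hba-x, the embryonic zeta chain, had an intensity of 6 at 0.5 M and 7 at 0.3 M, a difference of 0.08 after centring. Its deposited value was 1 unit higher at 0.3 M, so the sign of that difference comes from the centring. Hbb-y, the embryonic epsilon-type chain, had no value at 0.5 M and 4 at 0.3 M, the lowest intensity of that array. Hba-ps4, an alpha pseudogene, had no value at 0.5 M and 12 at 0.3 M, and Hbb-bh1, another embryonic beta-type chain, had no value on either array. Bright signals were therefore found for adult globin genes, and the embryonic and pseudogene probes carried none.

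The start of transcription of adult globin genes is shown as a description of how alike the promoters of the members are. Whether transcription bears on the difference between the fractions was not tested. RefSeq (build GRCm38.p6) gave a promoter window for 5 of the 8 members, and for Hba-a1, the other adult alpha gene, which no probe of this array is annotated to. The 120 bases before the start are printed 5′ to 3′ on the strand of the gene. Capitals mark 4 elements long described in globin promoters, searched on both strands. These are the CACCC core bound by Klf1 and its relatives, the CCAAT box, the TATAA of the TATA box and the GATA core bound by Gata1. The windows lie at chr11:32296372-32296491 (plus strand) for Hba-a2, chr7:103827929-103828048 (minus strand) for Hbb-bs, chr7:103813924-103814043 (minus strand) for Hbb-bt and chr11:32276480-32276599 (plus strand) for Hba-x.
Hba-a2: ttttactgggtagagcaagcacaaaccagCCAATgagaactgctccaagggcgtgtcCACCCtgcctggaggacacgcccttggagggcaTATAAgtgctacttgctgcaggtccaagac
Hbb-bs: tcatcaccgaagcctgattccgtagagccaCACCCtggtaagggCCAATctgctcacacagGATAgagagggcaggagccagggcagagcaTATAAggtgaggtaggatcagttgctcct
Hbb-bt: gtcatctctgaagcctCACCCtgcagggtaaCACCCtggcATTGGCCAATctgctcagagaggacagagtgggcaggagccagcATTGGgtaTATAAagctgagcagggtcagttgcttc
Hba-x: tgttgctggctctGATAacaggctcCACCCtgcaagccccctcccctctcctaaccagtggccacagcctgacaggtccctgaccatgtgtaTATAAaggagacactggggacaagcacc

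The adult promoters held the same 3 elements at different spacings. In Hba-a2 TATAA began 30 bases before the start, in Hbb-bs 29 and in Hbb-bt 28. CCAAT began 91 bases before the start in Hba-a2, 76 in Hbb-bs and 75 in Hbb-bt, where it adjoins a second copy on the other strand. Hbb-bt held a further copy on that other strand, from 36 to 32 bases before the start. Hba-x, the embryonic member printed here, held no CCAAT in this window. The embryonic member Hbb-y, whose window is not printed, differed from it. There CACCC began 111 bases before the start and CCAAT 83, and TATAA was not found. CACCC began 63 bases before the start in Hba-a2, downstream of CCAAT, but 90 in Hbb-bs and 104 and 89 in Hbb-bt, upstream of it. GATA was found in Hbb-bs and Hba-x only among the 4 printed windows. The motifs did not overlap each other. Of 32851 mouse promoter windows of the same length, 31.7% held CACCC on either strand, 21.3% held CCAAT, 11.8% held TATAA and 29.5% held GATA, so a match alone sets no promoter apart.

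The windows of Hbb-bs and Hbb-bt matched at 93 of 124 aligned positions (75%), and those of Hbb-bs and Hba-a2 at 49.0%. The 300-base windows of Hba-a1 and Hba-a2 shared an unbroken run of 297 bases. Promoter sequence does not tell what a probe binds, so whether the probe annotated to Hba-a2 also reports Hba-a1 was not tested. Which of the 2 genes gave its signal cannot be told from this array.

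Across the 7446 genes kept for comparison, those at or above the median level on at least 1 array, 2.35% were at least 2-fold lower at 0.5 M and 44.1% had a difference below 0. All 4 bright globin genes were below 0 and 1 of them, Hbb-bs, was at least 2-fold lower. They were chosen with these values in view, so nothing is read from those counts. Each of the 4 was at or above the median gene on both arrays. Hbb-bs lay just inside the 2-fold limit and Hba-a2 was the nearest outside it. The median difference of the 4 was -0.73, against 0.08 over all 7446 genes.

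No globin gene had more than 1 probe, so no error could be computed for any of them from this array. Among the 57 kept genes with several probes and a mean level at or above that of Hbb-b2, the pooled SD between probes of the same gene was 0.56 on the log2 scale (118 probes). The 4 globin differences spanned 0.36 after centring, less than that SD. They spanned 0.61 with quantile normalization and 0.75 with a loess trend on level removed, slightly more than it. The SD itself was computed after centring only, and a span over 4 values tends to exceed 1 SD. The order of the globins, from Hbb-bs through Hba-a2 and Hbb-bt to Hbb-b2, was thus not clearly separable from the disagreement between probes. That SD leaves out any variation between vesicle preparations.

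Each globin was then set beside the 500 probes nearest to it in mean log2 level, since bright probes as a whole leaned towards the 0.5 M fraction. The probes around Hbb-bs had a median difference of 0.57 (SD 0.71 over the 500 probes), and 23 of them (4.6%) were at or below Hbb-bs. Around Hba-a2 the median was 0.64 (SD 0.71) and 54 (10.8%) were at or below it. Around Hbb-bt the median was 0.41 (SD 0.65) and 53 (10.6%) were at or below it.

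The dimmer Hbb-b2 had neighbours with a median of 0.08 (SD 0.53), and 41 (8.2%) were at or below it. All 4 globins were thus in the lower part of their neighbours, and Hbb-bs was just below the value of -0.99 that marked the lowest 5% of its own. The distance from the median of the neighbours was -1.57 for Hbb-bs, -1.42 for Hba-a2, -1.08 for Hbb-bt and -0.72 for Hbb-b2. Few probes are as bright as Hba-a2, so its 500 neighbours cover a wide range of levels.

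**Figure D2:**
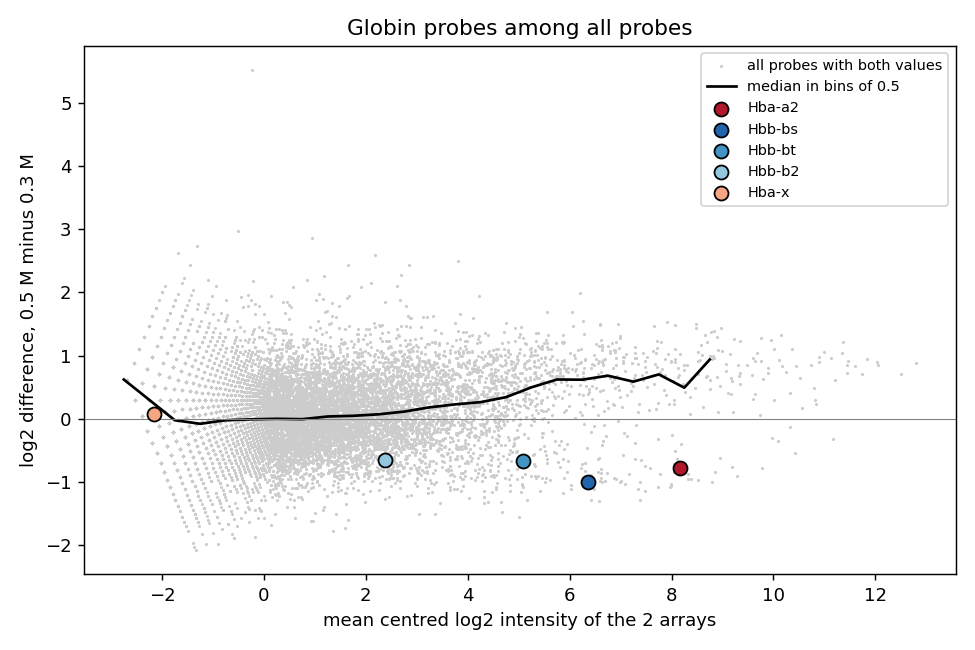
Log2 difference (0.5 M minus 0.3 M) against the mean centred log2 intensity of both arrays for the 16154 probes with both values (grey), with the median in bins of 0.5 (black line, bins of 20 or more probes) and the 5 globin probes that had both values. Hbb-b2, Hbb-bt, Hbb-bs and Hba-a2 lie between -0.65 and -1.004 while the black line rises above 0 at their levels, and Hba-x lies at the dim end.

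The differences of bright probes had a smaller peak below 0 and a larger one above it. Of the 541 probes with an intensity of at least 1000 at 0.3 M, 87 (16.1%) lay from -1 to -0.5, 50 from -0.5 to 0, 98 from 0 to 0.5 and 189 (34.9%) from 0.5 to 1. In bins of 0.25, the bin with the fewest probes between the peaks was that from -0.25 to 0, with 20. Hba-a2 and Hbb-bt lay in the lower of these ranges and Hbb-bs just below it. Counted from the lowest difference, Hbb-bs was at place 36 of the 541, Hba-a2 at 82 and Hbb-bt at 97. A limit set on the 0.3 M array alone lets in probes that are high only there, so it adds to the lower peak. With the limit set on the geometric mean of both arrays, chosen after the data were seen, 64 of 539 probes lay from -1 to -0.5, 36 from -0.5 to 0, 101 from 0 to 0.5 and 212 from 0.5 to 1. Hbb-bs was then at place 21 and Hba-a2 at place 57, and Hbb-bt was not in the set.

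**Figure D3:**
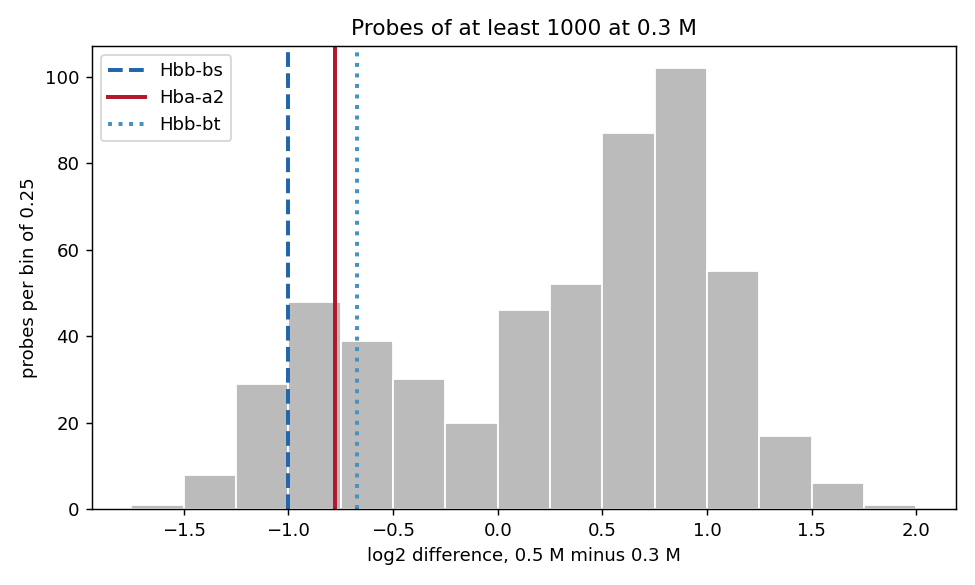
Number of probes per bin of 0.25 in log2 difference (0.5 M minus 0.3 M) among the 541 probes with an intensity of at least 1000 at 0.3 M. Vertical lines mark Hbb-bs (dashed), Hba-a2 (solid) and Hbb-bt (dotted), which lie in or beside the smaller peak below 0, while the tallest bin, with 102 probes, runs from 0.75 to 1.

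Probes of many other genes differed between the fractions as the globins did. Among the 200 probes nearest in level to Hba-a2, the named genes with the closest difference were the semaphorin Sema4d (-0.77), Tmem106a (-0.83) and the DNA damage kinase Atr (-0.72). Around Hbb-bs they were the TGF-beta pseudoreceptor Bambi (-1.002), the dynein subunit Dync1li1 (-1.006) and the potassium channel Kcnh1 (-0.988). Likeness here is the gap between log2 differences over 2 arrays, which is too little to relate the genes to one another. Of the probes of at least 1000 at 0.3 M, the lowest differences among named genes were those of the endosomal phosphatase Ptpn23 (488 at 0.5 M and 1765 at 0.3 M, -1.56), Vsig8 (-1.33), Nwd2 (-1.32), Disp3 (-1.31), Plekha7 (-1.30), the actin regulator Abi2 (-1.28), Wipf1 (-1.28), the chromatin remodeller Chd2 (-1.17), Lgals4 (-1.15) and Tmem52b (-1.14). Hbb-bs was closer to 0 than all 10. The limit on the 0.3 M array favours such genes, and several of them, Ptpn23 among them, would not pass it at 0.5 M.

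Globin genes that the symbol rule does not reach did not share one direction after centring, and only Mb among them was bright. Myoglobin (Mb), the oxygen-binding globin of muscle, had an intensity of 583 at 0.5 M and 1392 at 0.3 M, a difference of -0.96 that is close to that of Hbb-bs. Cytoglobin (Cygb), a globin of many tissues, had 34 at 0.5 M and 35 at 0.3 M (0.26). Neuroglobin (Ngb), a globin of neurons, had 13 at 0.5 M and 14 at 0.3 M (0.19) and was not kept. The deposited values of Cygb and Ngb were slightly higher at 0.3 M, so the sign of their differences comes from the centring. Hbq1a, the theta globin of the alpha cluster, had no value on either array.

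Other red cell genes were mostly dim, and after centring those kept were not lower at 0.5 M as a group. Their brightest probes, of Sptb and Prdx2, went opposite ways (-0.95 and 0.84). Most of these genes were too dim to be matched in level to the bright globins. Lists of haem synthesis enzymes, membrane proteins, enzymes with haemoglobin partners, and transcription factors held 65 genes. Of these, 58 were on the array and 25 were kept. Of the 25, 9 were below 0 and 16 above, 0 were at least 2-fold lower and 1 at least 2-fold higher, with a median of 0.16 against 0.08 over all kept genes. Over all kept genes 5.24% were at least 2-fold higher. Summed over the probes of these lists with both values, the intensity was 6007 at 0.5 M and 8817 at 0.3 M. Without Sptb, left out after its values were seen, it was 3745 at 0.5 M and 3469 at 0.3 M.

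Haem synthesis enzymes had a median of 0.30 over 7 kept genes, 2 of them below 0. Alas2, the enzyme that starts haem synthesis in red cells, had an intensity of 28 on each array (0.30), whereas its form in other cells, Alas1, had 109 at 0.5 M and 87 at 0.3 M (0.62). Urod, which acts midway in the pathway, was at 0.83, and Fech, which inserts the iron, at -0.09. Iron supply genes had a median of 0.18 over 6 kept genes, with 2 below 0. The ferritin heavy chain Fth1, an iron store of most cells, had 18725 at 0.5 M and 12695 at 0.3 M (0.86). After centring, the medians of both lists thus lay above 0, unlike that of the globin chains. The value of Alas2 is the centring shift alone, and it is also the median of the haem enzymes. Neither median exceeded that shift, so neither lay above 0 before centring. Over all 8 iron supply genes with a value on both arrays, 4 were below 0. The haem enzymes were also dimmer than Hba-a2, Hbb-bs and Hbb-bt, so they are not matched to these in level.

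Membrane and skeleton genes of red cells had a median of 0.08 over 7 kept genes, 2 below 0. The anion exchanger Slc4a1, the main membrane protein of red cells, had 7 at 0.5 M and 8 at 0.3 M. The water channel Aqp1 had 68 at 0.5 M and 35 at 0.3 M (1.26). The 2 probes of Sptb, the red cell beta spectrin, disagreed, with 2233 at 0.5 M and 5326 at 0.3 M on one (-0.95) and 29 at 0.5 M and 22 at 0.3 M on the other (0.70). Sptb entered the counts by the mean of both (-0.13).

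Red cell enzymes and haemoglobin partners had a median of 0.40 over 6 kept genes, 2 below 0. The antioxidant Prdx2, abundant in red cells and present in T cells too, had 1605 at 0.5 M and 1101 at 0.3 M (0.84), while the catalase gene Cat had 35 at 0.5 M and 80 at 0.3 M (-0.89). Car1, a carbonic anhydrase of red cells, had no value on either array. Erythroid transcription factors and the erythropoietin receptor had a median of -0.03 over 5 kept genes, 3 below 0. Gata1, the chief erythroid factor, had 35 at 0.5 M and 44 at 0.3 M (-0.03), and Klf1, which acts on the adult beta gene, had 15 at 0.5 M and 21 at 0.3 M.

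Of these red cell genes, Slc4a1 was near the lowest intensity of each array, Alas2 and Gata1 were near the median of probes with both values, and 1 probe of Sptb was bright. No red cell or precursor sample is among the arrays, so the part of such cells in the globin signal was not tested.

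Markers of other cells were as follows. Of the 16 probes for CTL markers, 12 had an intensity of at least 50 at 0.5 M and 13 at 0.3 M. For scale, 26 at 0.5 M and 32 at 0.3 M were the median intensities of probes with both values. How many of all probes reached 50 was not counted, so these counts do not test the labelled cell type. The CTL list had a median of 0.50 over 14 kept genes, 5 below 0 and 9 above. Gzmb, the main granzyme of killer cells, had 2838 at 0.5 M and 2493 at 0.3 M (0.49), while the coreceptor Cd8a had 2463 at 0.5 M and 3677 at 0.3 M (-0.28), and the receptor chain Cd3e was dim, with 14 at 0.5 M and 12 at 0.3 M. Platelet and megakaryocyte markers had a median of -0.03 over 5 kept genes, 4 below 0, with the platelet chemokine Pf4 at 20 at 0.5 M and 33 at 0.3 M (-0.42). The cytokine Ifng, also on the CTL list, had 238 at 0.5 M and 468 at 0.3 M (-0.68), a difference as low as that of Hbb-bt. The globin median of -0.73 was lower than the medians of the CTL and platelet lists, but not than the value of the serum and liver list, which rests on 1 kept gene (-0.86).

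**Figure D4:**
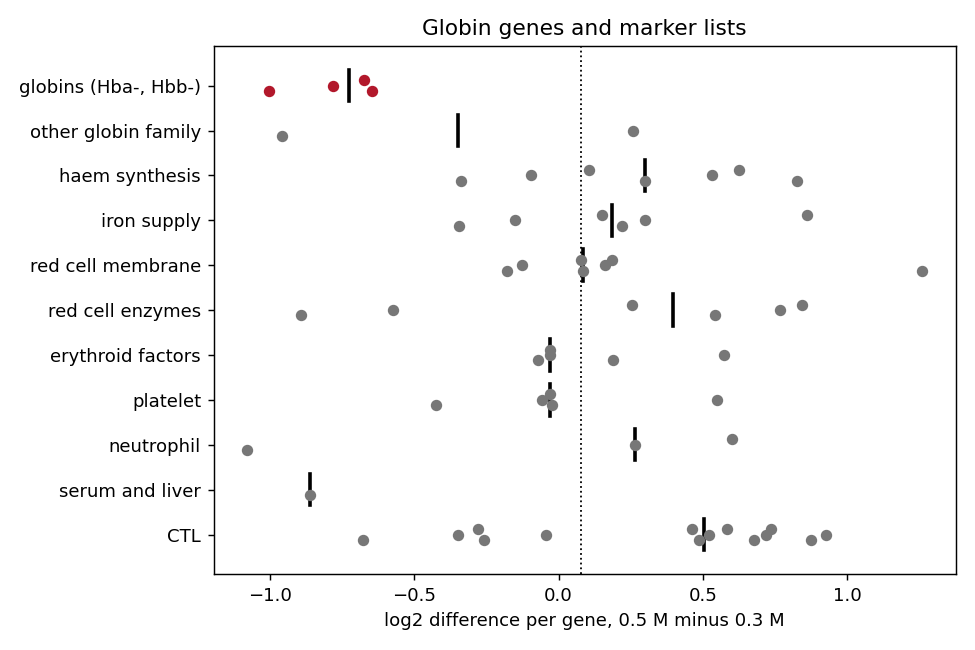
Log2 difference (0.5 M minus 0.3 M) of each kept gene (points) by gene list, with the median of each list (black bar) and the median of all 7446 kept genes (dotted line). The 4 globin genes lie from -1.004 to -0.65, while the CTL list has its median at 0.50 and the other red cell lists have medians from -0.03 to 0.40.

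The direction of the 4 globins held under each scaling tried, and their size did not. The share of all kept genes below 0 ran from 44.1% after centring to 64.5% as deposited. With the values as deposited the median of the 4 was -1.03, with quantile normalization -1.14, with removal of a loess trend on level -1.24 and with a pseudocount of 16 it was -0.82. Beside the globins, the share of all kept genes at least 2-fold lower was 7.78% as deposited, 3.87% with quantile normalization, 3.93% with the loess trend removed and 1.32% with the pseudocount. The brightest gene changed most, as Hba-a2 was at -0.78 after centring, -1.31 with quantile normalization and -1.42 with the loess trend removed. The dimmest changed least, with Hbb-b2 between -0.65 and -0.95. Hbb-bs had the lowest value and Hbb-b2 the highest under each of the 5 scalings.

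**Figure D5:**
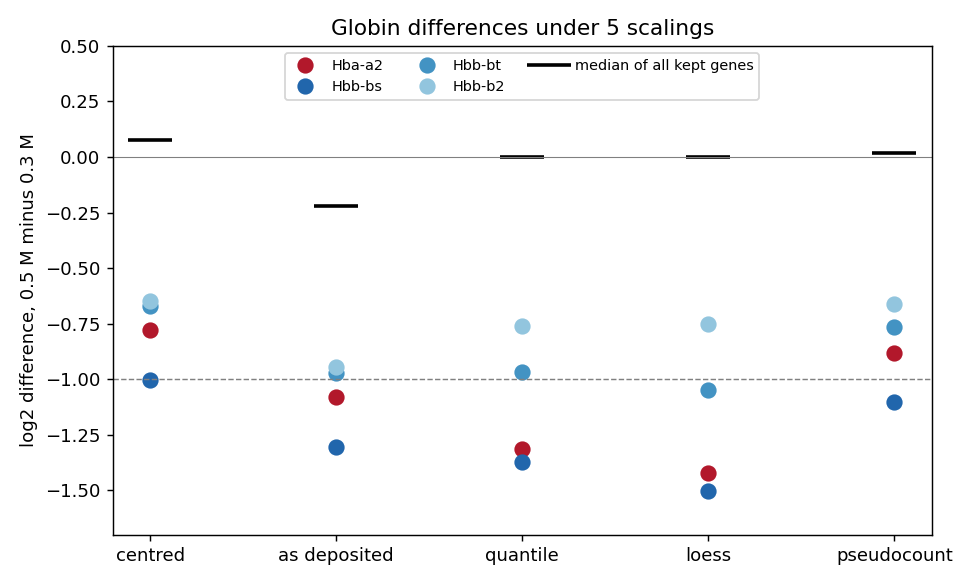
Log2 difference (0.5 M minus 0.3 M) of the 4 bright globin genes under 5 scalings of the same pair of arrays, with the median of all kept genes (black bars). The dashed line marks a 2-fold difference, which 1 globin passes after centring, 2 as deposited, 2 with quantile normalization, 3 with the loess trend removed and 1 with a pseudocount.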

How the data were processed

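Total RNA of 2 vesicle fractions was amplified as amino allyl RNA and coupled to Cy5 (labels' protocols), with 1 array each. The authors deposited linear probe intensities in whole numbers. Neither the labels nor the table name the scanner, background correction, normalization or rule behind empty cells. Symbols came from the platform annotation, updated through a RefSeq table (GRCm38.p6) (20556 probes matched by Entrez identifier, 9 by accession, 125 unmatched). Each array's log2 intensities were centred on the median over probes with both values. A gene is the mean of its probes, kept if at or above the median gene on at least 1 array. There is no replicate and no test. The globins and the 10 further gene lists were chosen with earlier results of these data known. Every gene with a symbol starting Hba- or Hbb- is named, other genes by a fixed rule, and list genes as examples. Centring, quantile normalization and loess trend removal were checked on simulated data with planted differences. Python 3.11.15, pandas 2.3.3 and statsmodels 0.14.6 (lowess, span 0.3) were used.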

Additional observations from a re-analysis of the deposited data

How the results depend on the processing

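With 1 array per fraction, precision is limited by the number of arrays, and dim probes have no stated background. No paired analysis was possible because each fraction has 1 array. All 4 bright globins kept their sign under every scaling tried. Over all kept genes the share below 0 was 44.1% after centring and 64.5% as deposited. It was 49.2% with quantile normalization, 50.1% with the loess trend removed and 48.3% with a pseudocount. The count of globins at least 2-fold lower, 1 after centring, was 2 as deposited, 2 with quantile normalization and 3 with the loess trend removed. Over all genes that count was 175 after centring, 579 as deposited (7.78%), 288 with quantile normalization (3.87%), 293 with the loess trend removed (3.93%), 98 with a pseudocount (1.32%) and 380 with no filter on dim genes (2.77%). The share of similarly bright probes at or below Hba-a2, 10.8% at first, was 6.6% with quantile normalization and 7.6% with the loess trend removed, and that for Hbb-b2, 8.2% at first, was 5.5% with the 200 nearest probes. The other shares stayed within the exact 95% binomial interval of the first value. That interval is only a yardstick, since the sets of probes overlap and it is no replicate error. The cause of these shifts was not tested. The share of bright probes below 0 was 32.3%, and 22.8% with the limit on the mean of both arrays. Without the filter on dim genes, which adds Hba-x, the globin median was -0.67.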

Other observations

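Bright probes of ribosomal protein and respiratory chain genes lay on the other side of 0 from the bright globins, with 1 exception, in classes chosen after the values were seen. Of the 541 probes of at least 1000 at 0.3 M, 366 (67.7%) were above 0. Of these 541 probes, 50 carried symbols of cytosolic ribosomal proteins, and all 50 were above 0 with a median difference of 0.82. Of 23 probes for respiratory chain subunits and ATP synthase, 22 were above 0 (median 0.75). Among 386 other named probes, 155 were below 0 and 231 above, and the 3 bright globins were among the 155.

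Neutrophil markers had 3 kept genes, with the iron-binding carrier protein Lcn2 at 226 at 0.5 M and 587 at 0.3 M (-1.08), S100a8 at 0.26 and Ly6g at 0.60. Of the serum and liver protein genes only Ahsg was kept, with 34 at 0.5 M and 76 at 0.3 M (-0.86), and the albumin gene Alb was dim, with 9 at 0.5 M and 14 at 0.3 M.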
